A study of Mus musculus with 2 samples.

Results

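The genes of MHC class II antigen presentation were followed across the cell clusters and both libraries of a single-cell RNA-sequencing experiment on the arthritic mouse synovium. The 10 genes, Cd74, H2-Aa, H2-Ab1, H2-Eb1, H2-DMa, H2-DMb1, H2-DMb2, Ciita, Cd86 and Cd80, were chosen by symbol among 32524 genes in the tables. The choice applied no cut to their values, but earlier results of these data were known when it was made. The experiment asked how innate immune training, here a single injection of β-glucan, alters myeloid cells of the inflamed joint. Mice aged 7 to 10 weeks at the start received 1 mg β-glucan or PBS by intraperitoneal injection, arthritis was induced 7 days later, and at day 17 of arthritis the hind paws were taken for sorting of CD45+CD11b+ cells. Both groups were arthritic, so no library came from a healthy joint. The study describes this arthritis as K/BxN serum transfer, whereas the labels of the samples describe a cocktail of arthritogenic antibodies with lipopolysaccharide. Cells of 4 mice per group were pooled into 1 library, and no label ties a cell to its mouse. Each group was therefore 1 sample, no test across samples was possible, and every interval given here covers counting error only.

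MHC class II molecules carry peptides from endosomes to the cell surface, where CD4+ T cells read them. The α and β chains assemble around the invariant chain, the peptide-editing complex H2-DM then exchanges the remaining piece of that chain for antigen peptides, and the transactivator CIITA switches the whole gene group on. The costimulatory ligands CD80 and CD86 bind CD28 on T cells and are controlled separately. Dendritic cells and B cells carry class II constitutively, and macrophages carry it in variable amounts.

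The β-glucan library held 7196 barcodes and 81611849 unique molecular identifiers (UMIs, each standing for 1 captured transcript), and the PBS library 5760 barcodes and 73874602 UMIs. Only barcodes that had 500 genes or more and no more than 10% of their UMIs from mitochondrial genes entered, which left 5696 and 4553 cells with a median of 12458 and 14475 UMIs. Of 7 barcodes found in both libraries, 2 passed in both. Cells were grouped into 20 clusters without use of the 10 genes or of 49 pathway genes. Of these, 11 clusters with 8281 cells formed the myeloid compartment, which leaves out neutrophils. Macrophage-like clusters were clusters 1, 5, 6 and 9. Clusters 0, 2 and 3 scored highest for macrophage markers too but stayed unnamed because markers of another type stood among their leading genes, and they held 16.3%, 11.9% and 9.71% of the β-glucan cells and 13.8%, 10.4% and 10.3% of the PBS cells. Cluster 4 was dendritic cell-like (Ccl22, Cd209a), cluster 18 resembled type 1 dendritic cells (Clec9a, Xcr1) and cluster 19 monocytes. Cluster 13, led by Arg1, Slc7a2 and Mmp12, scored highest for dendritic cell markers (0.825). It stayed unnamed because this was under the score of 1 needed, and it held 145 PBS cells. It held 0 of 5696 β-glucan cells, which allows a share of up to 0.0527% (3 cells of the total), and with 1 library per group it may be a feature of that library and not a type. Although the sort was for CD11b, B cell-like, T cell-like, natural killer cell-like, stromal and endothelial clusters were present as well.

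Of the 10 genes, 6 had a promoter window in the RefSeq table used here (GRCm38.p6, from 250 bases before to 50 bases after a transcription start). Class II promoters are known to be bound by RFX and NF-Y at an X box and a Y box that lie a fixed distance apart. The windows were searched for the core GNAAC followed after 24 to 30 bases by ATTGG, a pattern chosen with these promoters in view. On either strand GNAAC occurred in 84.8% of 32851 windows and ATTGG in 37.4%, whereas the spaced pair occurred in 1.19%. The pair was present in the windows of H2-Aa, H2-Eb1 and H2-DMb1, and absent from those of H2-DMa, H2-DMb2 and Cd80. The windows of H2-Oa and H2-Ob, genes of the H2-DM inhibitor H2-O, held the pair as well. H2-DMa, without a match in its windows, followed the class II chains in level across clusters. H2-Oa and H2-Ob, with a match, had their highest level in B cell-like cluster 7. The part of the pair in these levels was not tested. The stretches are shown for the class II chains and for the neighbours H2-DMb1 and H2-DMb2, whose counts are compared with each other further on. They are written 5′ to 3′ on the strand of the gene, with GNAAC and ATTGG in capitals, and H2-DMb2 is aligned on ATTGG alone.
H2-Aa (chr17:34287855-34287916, minus strand): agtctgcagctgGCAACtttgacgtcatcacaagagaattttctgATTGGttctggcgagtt
H2-Eb1 (chr17:34305764-34305824, plus strand): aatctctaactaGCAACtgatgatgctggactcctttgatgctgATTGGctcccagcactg
H2-DMb1 (chr17:34153085-34153146, plus strand): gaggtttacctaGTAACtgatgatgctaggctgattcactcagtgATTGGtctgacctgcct
H2-DMb2 (chr17:34145114-34145175, plus strand): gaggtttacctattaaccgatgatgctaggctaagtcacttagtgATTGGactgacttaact
H2-DMb1 and H2-DMb2 differed at 9 of these 62 bases. Counting from 1 at the first base shown, with the base of H2-DMb1 first, G13T fell inside the GNAAC core and T18C just after it. A missing match says only that these letters are not in the window.

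In the myeloid compartment the invariant chain and the class II chains were lower in the β-glucan library. The level of Cd74, which encodes the invariant chain, was 3520 CPM (UMIs per 1000000 UMIs of the compartment) in the β-glucan library and 5431 CPM in the PBS library, a log2 ratio of -0.63 (95% interval -0.63 to -0.62). H2-Aa, the α chain of I-A, was at 1328 and 1896 CPM (log2 ratio -0.51, -0.53 to -0.50). H2-Ab1, its β chain, was at 1282 and 1905 CPM (-0.57, -0.58 to -0.56). The β chain of I-E, H2-Eb1, followed with a log2 ratio of -0.55 (1025 and 1498 CPM), so the 4 abundant genes differed by similar amounts. H2-Ea, the α chain of I-E, had no row in the counts, so the values of H2-Eb1 do not show that an I-E complex was made. Their summed level, called the class II sum here, was 7155 CPM with β-glucan and 10730 CPM with PBS (log2 ratio -0.58, -0.59 to -0.58).

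The genes of the peptide editor were lower as well. H2-DMa, the α chain of H2-DM, was at 168 CPM with β-glucan and 235 CPM with PBS (log2 ratio -0.49). H2-DMb1, the main β chain, was at 131 and 203 CPM (-0.63), and H2-DMb2 at 9.30 and 12.1 CPM (-0.38, -0.54 to -0.23). In contrast, Ciita, the transactivator, was at 43.0 and 45.4 CPM, a log2 ratio of -0.08 (-0.15 to -0.00). Cd86 was at 166 and 162 CPM (0.04, 0.00 to 0.08) and Cd80 at 40.6 and 42.7 CPM (-0.07, -0.15 to 0.01). Over the whole compartment, the regulator and the costimulatory ligands thus differed less between the libraries than the genes of the presenting complex. This did not hold in cells matched as described next, where the class II sum was at -0.17, Ciita at 0.17, Cd86 at -0.15 and Cd80 at -0.17. Nor did it hold in every cluster, since Ciita was at 0.32 and the class II sum at -0.23 in cluster 4. In the macrophage-like clusters alone, Cd86 was at 164 and 141 CPM (0.22, 0.15 to 0.29).

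A log2 ratio of 0.25 in size was used as the fold that counts as past the threshold, without a test. Of the 10 genes, 7 were lower past this fold and 0 higher, with a median of -0.50. Of the 9809 genes whose mean reached 5 CPM, 4.75% were lower past the fold and 7.60% higher, and the median was 0.03. These counts changed with the weight given to each cluster and with the clusters kept. With clusters weighted by their share of the UMIs of both libraries, the class II sum had a log2 ratio of -0.25 and 2 genes were lower past the fold. This setting left out clusters 13, 18 and 19, which had too few cells in a library. Equal weight per cluster, over the same clusters, gave -0.26 and 3 genes. Cells were also matched within clusters by the fraction of their UMIs that came from genes spanning 100 kb or more. This matching, which made cell numbers per cluster equal and left out cluster 13, gave -0.17 and 0 genes. H2-DMb2 and Ciita were higher with β-glucan under these 3 settings, Ciita at 0.16, 0.05 and 0.17, and Cd86 was lower, at -0.04, -0.03 and -0.15. Without cluster 13, which held PBS cells only, the log2 ratio of the class II sum was -0.49 and 6 genes were lower past the fold. Fewer cells of a class II-rich type and less class II RNA per cell cannot be told apart in the summed level, so the clusters are described next. The dendritic cell-like cluster 4 made up 7.72% of its library with β-glucan (interval 7.04% to 8.45%) and 10.6% with PBS (interval 9.71% to 11.5%).

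Within clusters the direction was shared and the size was smaller in most. In each of the 8 clusters of the compartment with at least 100 cells per library, Cd74, H2-Aa, H2-Ab1, H2-Eb1, H2-DMa and H2-DMb1 were lower with β-glucan. How many of all genes were lower in all 8 was not counted, and these clusters come from the same libraries, so they are not independent. Log2 ratios of Cd74 ran from -0.96 to -0.21 with a median of -0.34. The class II sum of cluster 4 was 29482 CPM with β-glucan and 34497 CPM with PBS (log2 ratio -0.23, -0.23 to -0.22). In the macrophage-like clusters together it was 3940 and 4569 CPM (-0.21, -0.23 to -0.20). The ratios furthest from 0 were in clusters with little class II. In macrophage-like cluster 5 the class II sum was 625 and 1185 CPM (-0.92), and in the unnamed cluster 2 (Vsig4, S100b) it was 336 and 613 CPM (-0.87). Few cells carried these values, since 23 and 44 cells over a cut of 20 class II UMIs per 10000 held 80.3% and 89.9% of the class II UMIs of cluster 5, and 17 and 14 cells held 78.0% and 85.4% of those of cluster 2. The other cells of cluster 5 were at 130 and 134 CPM. Ciita, Cd86 and Cd80 were higher in 3 of these clusters and lower in 5. H2-DMb2 was higher in 6 and lower in 2, from at most 37 UMIs per library outside cluster 4.

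**Figure D1:**
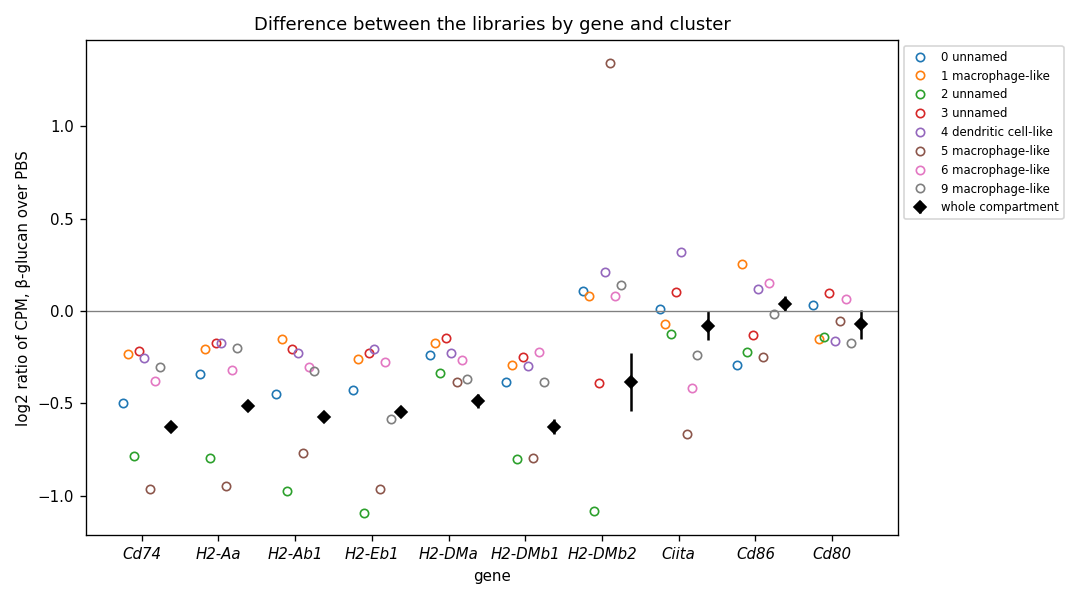
The plot shows the log2 ratio of CPM, β-glucan over PBS, for each gene on the vertical axis, with open circles for the 8 clusters with at least 100 cells per library and black diamonds for the whole compartment (bars, 95% counting intervals). All circles of Cd74, H2-Aa, H2-Ab1, H2-Eb1, H2-DMa and H2-DMb1 lie below 0, while those of Ciita, Cd86 and Cd80 lie on both sides.

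In cluster 4 Ciita was higher with β-glucan, while Cd74, H2-Aa, H2-Ab1, H2-Eb1, H2-DMa and H2-DMb1 were lower. Ciita was at 168 CPM with β-glucan and 135 CPM with PBS there (log2 ratio 0.32, 0.22 to 0.42), whereas Cd74 was at 14591 and 17382 CPM (-0.25). Of the 10 genes, 2 were lower past the fold in this cluster and 1 higher, with a median of -0.19. Of all 9632 genes, 7.18% were lower past the fold and 13.9% higher, so the count of 1 higher is near the share over all genes. The gene higher past the fold was Ciita, and those lower were Cd74 and H2-DMb1. A similar pair of values was found in the B cell-like cluster 7, where Ciita was at 333 and 230 CPM (0.53, 0.34 to 0.73) and Cd74 at 10106 and 10843 CPM (-0.10, -0.13 to -0.07). Ciita spans 49.8 kb and Cd74 8.83 kb, and over all genes of the compartment the median log2 ratio moved with span, from -0.06 under 10 kb to 0.14 at 100 kb or more. Its median was 0.02 in the class of 10 to 50 kb that holds Ciita and 5 other members. The part of span in the values of Ciita was not tested.

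The level of class II differed far more between cell clusters than between libraries. Cluster 18 came first, with a class II sum of 36043 CPM in the β-glucan library and 43362 CPM in the PBS library. Cluster 4 came next. Cluster 13 had 21276 CPM in the PBS library, the only one that held its cells. Within the compartment, the highest cluster exceeded the lowest, cluster 2, by 6.43 on the log2 scale. Proliferating cells, with 17339 and 23195 CPM, and B cell-like cluster 7, with 17874 and 18773 CPM, also stood high. Macrophage-like clusters were spread widely, from 7732 and 8984 CPM in cluster 1 (Gpnmb, Atp6v0d2) to the low level of cluster 5 (Plet1, Fxyd2). Each of the α and β chains and both main H2-DM genes had its highest level in cluster 18 and its second highest in cluster 4.

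**Figure D2:**
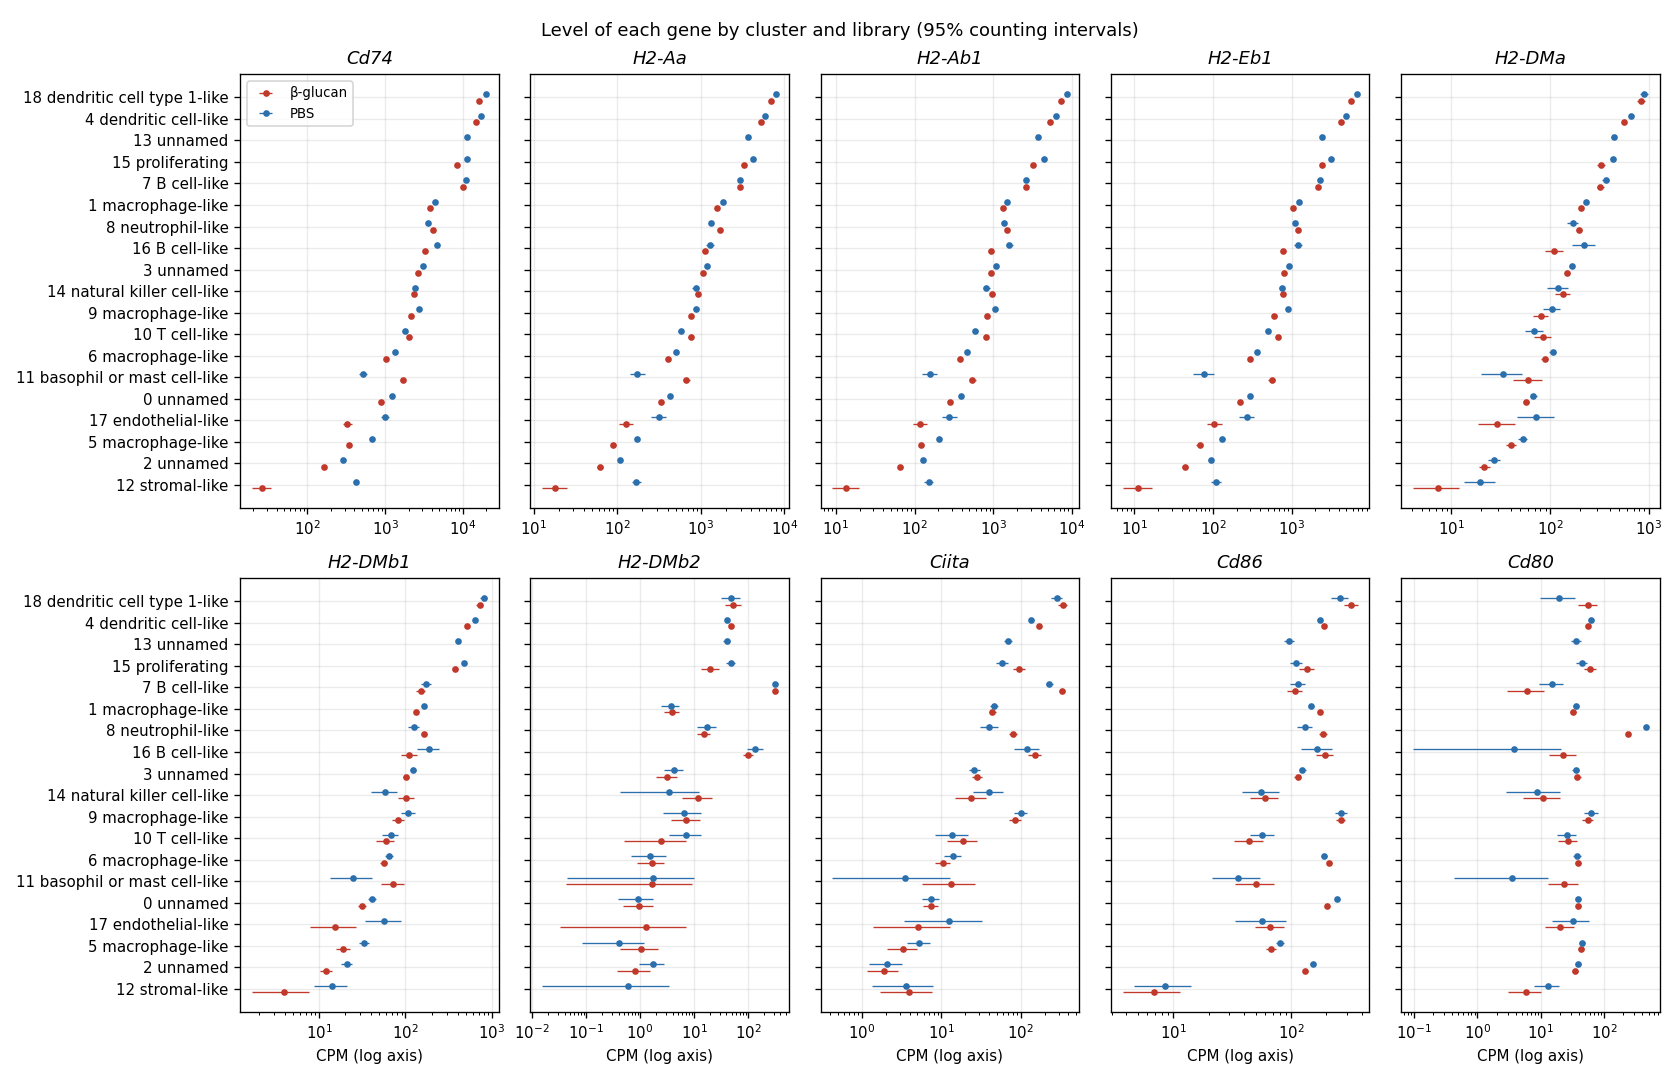
Each panel gives 1 gene, with CPM on a log axis across and clusters of at least 50 cells down, ordered by the class II sum of both libraries, in red for β-glucan and blue for PBS with 95% counting intervals (points at 0 UMIs are not drawn). Cd74, H2-Aa, H2-Ab1, H2-Eb1, H2-DMa and H2-DMb1 follow the order closely, H2-DMb2 and Ciita rise in B cell-like clusters 7 and 16, and Cd80 is highest in neutrophil-like cluster 8.

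Across the 11 clusters of the compartment, with both libraries summed, the log2 level of each gene was compared with that of the class II sum, as a description. Pearson's r was 0.99 for H2-DMb1, 0.98 for H2-DMa, 0.94 for Ciita and 0.92 for H2-DMb2. It was 0.31 for Cd86 and 0.18 for Cd80, which placed them at ranks 1550 and 2222 of 9809 genes. Outside the lists, the genes most like the class II sum were Slamf7, a receptor of the SLAM family (0.96), Olfm1 (0.95), Clec4b1 (0.95), Csf2rb, a receptor chain for GM-CSF (0.94), and Batf3, a transcription factor of type 1 dendritic cells (0.94). Plscr1, Lmo1, Itgax, Traf1 and Eef1akmt1 followed with r of 0.92. All of these values share the same 11 clusters and libraries, and a dendritic cluster with high levels weighs on each of them.

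Single cells did not spread evenly around these means. Class II UMIs per 10000 UMIs of a cell had a low and a high range, with fewer cells in the bins between. In the β-glucan library 28.5% of compartment cells had under 0.5 class II UMIs per 10000, 3.10% had 16 to 32, and 7.09% had 256 to 512. In the PBS library the same ranges held 23.2%, 3.70% and 9.94%. The dip between was shallow. The bins of 8 to 16 and 32 to 64 held 3.45% and 4.06% with β-glucan, and 3.24% and 3.76% with PBS. A cut at 20 per 10000 was set in this dip after the distribution had been seen, and 7.16% and 6.86% of cells lay between 10 and 40. Of compartment cells, 26.3% with β-glucan (25% to 27.5%) and 34.2% with PBS (32.6% to 35.7%) were at or over it. Cells over the cut held 98.3% and 99.0% of the class II UMIs of the compartment. Their mean level was 23803 CPM with β-glucan and 27512 CPM with PBS, and that of the cells under it was 171 and 180 CPM. Both the share of class II-high cells and the level in them were thus lower in the β-glucan library.

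**Figure D3:**
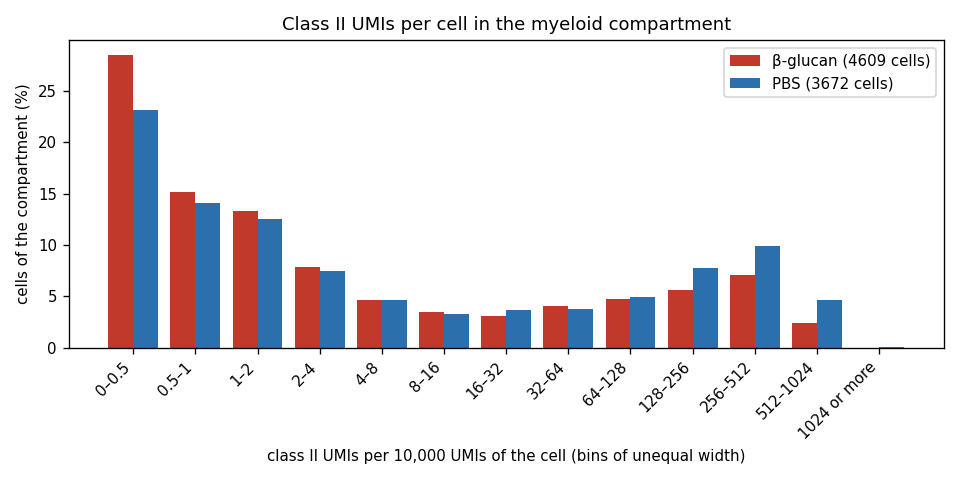
Bars give the percentage of myeloid compartment cells (vertical axis) in each bin of class II UMIs per 10000 UMIs of the cell (horizontal axis, bins of unequal width), in red for 4609 β-glucan cells and blue for 3672 PBS cells. Both libraries have a low and a high range with a shallow dip between, and the bins from 128 upward hold a larger share of the PBS cells.

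Class II-high cells were not confined to dendritic cell-like clusters. All 33 and 24 cells of cluster 18 were over the cut, as were 82.3% (78.4% to 85.7%) and 89.0% (85.9% to 91.7%) of cluster 4. Macrophage-like cluster 1 was split, with 43.5% over it in the β-glucan library (39.8% to 47.2%) and 45.9% in the PBS library (41.6% to 50.3%). The unnamed cluster 3, in which the osteoclast-associated genes Acp5 and Ctsk stood beside muscle transcripts, was divided in the same way, at 37.4% and 33.2%. Its share was higher in the β-glucan library, with overlapping intervals (33.4% to 41.6% and 28.9% to 37.7%). Cluster 2 held 2.51% and 2.95% of cells over the cut and cluster 5 4.85% and 10.2%. When the 10 genes and the pathway genes were allowed to shape the clusters, 911 cells formed a cluster with H2-Aa, H2-Eb1, Cd74 and H2-Ab1 among its 10 leading genes. Of these, 396 came from cluster 1, 216 from cluster 3, 103 from cluster 0, 70 from cluster 6, 67 from cluster 9 and 34 from cluster 4.

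**Figure D4:**
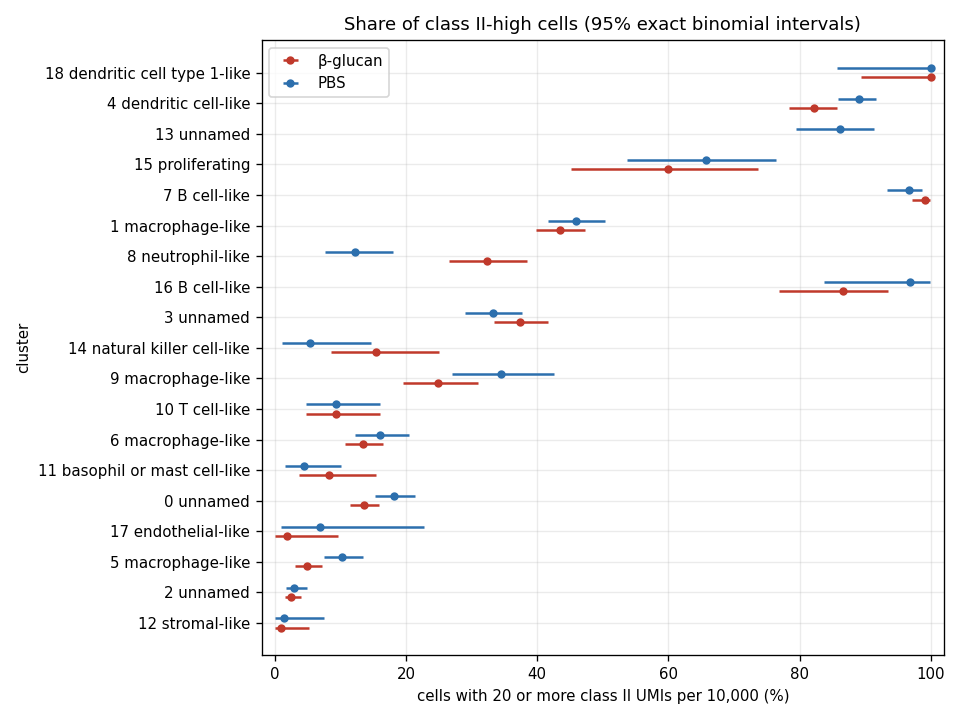
The plot gives the percentage of cells with at least 20 class II UMIs per 10000 (horizontal axis) in each cluster of at least 50 cells (vertical axis), in red for β-glucan and blue for PBS with exact 95% binomial intervals. Clusters 18, 4, 13, 7 and 16 lie above 80%, clusters 1 and 3 lie between 33.2% and 45.9%, and neutrophil-like cluster 8 is higher with β-glucan.

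Ciita separated the low and the high cells. Compartment cells over the cut had 141 CPM of it with β-glucan and 115 CPM with PBS, against 1.89 and 1.70 CPM in the cells under it. The split was also present inside clusters, mostly narrower. The log2 ratio over against under the cut was 6.22 and 6.08 in the compartment, 5.01 and 5.11 in cluster 1, 4.49 and 5.19 in cluster 6 and 6.16 and 5.22 in cluster 4. In cluster 3 Ciita was at 84.6 CPM over and 1.57 CPM under the cut with β-glucan, and at 77.5 and 2.22 CPM with PBS. H2-DMa (455 and 46.8 CPM with β-glucan) and H2-DMb1 (396 and 20.2 CPM) followed the cut with a smaller step for H2-DMa. The costimulatory ligands had far smaller steps, with log2 ratios of 0.38 and 0.01 for Cd86 and 0.33 and 0.30 for Cd80. Cd86 was at 199 CPM over and 153 CPM under the cut with β-glucan, and at 163 and 161 CPM with PBS. Cd80 was at 47.5 and 37.7 CPM with β-glucan and at 48.1 and 39.2 CPM with PBS. Inside clusters the step of Cd86 differed. In cluster 4 it was higher over the cut, with 205 against 116 CPM with β-glucan and 183 against 110 CPM with PBS. In macrophage-like cluster 6 it was at 358 against 185 CPM with β-glucan and 216 against 186 CPM with PBS. In cluster 0 it was at 193 against 205 CPM with β-glucan and 197 against 260 CPM with PBS. Cells over the cut also had a higher level of Ccr2, a chemokine receptor of monocyte-derived cells (697 and 155 CPM with β-glucan, 605 and 136 CPM with PBS). Cd40, the receptor for CD40 ligand on helper T cells, was lower in them, at 36.1 against 59.4 CPM with β-glucan and 34.8 against 57.8 CPM with PBS. This did not hold in every cluster, since Cd40 was at 43.3 against 39.9 CPM with β-glucan and 37.5 against 27.1 CPM with PBS in cluster 1.

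Other cells and free RNA can contribute UMIs of these genes. Stromal cells were used as a guide to this, on the untested assumption that they carry no class II of their own. Their median cell had 0.36 class II UMIs per 10000 with β-glucan and 0.49 with PBS, and 1 stromal cell in each library was over the cut. After each cell was thinned to 2000 UMIs, Cd74 was found in 34.8% of compartment cells with β-glucan and 43.7% with PBS, against 3.77% and 5.48% of stromal cells. The median stromal cell had 17689 and 20874 UMIs before thinning, more than the 13032 and 15461 of the compartment. The class II sum of the stromal cluster differed widely between libraries, 68.6 and 849 CPM, but 94.1% of its class II UMIs in the PBS library came from the 1 cell over the cut. Over the compartment, the 6 B cell markers summed to 16.4 CPM with β-glucan and 10.7 CPM with PBS. Without the compartment cells that held at least 2 UMIs of Cd79a, Cd79b or Ms4a1 (57 and 56 cells), the log2 ratio of the class II sum was -0.63.

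H2-DMb2 differed from the other class II genes in its level in B cell-like clusters. B cell-like cluster 7 had 320.3 CPM of it in the β-glucan library and 319 CPM in the PBS library, above H2-DMb1 at 151 and 173 CPM. In the dendritic cell-like cluster 4 the order was the opposite, with 48.0 and 41.4 CPM of H2-DMb2 against 517 and 634 CPM of H2-DMb1. For every 100 H2-DMb1 UMIs there were 198 H2-DMb2 UMIs in cluster 7 (178 to 221) and 85.3 in B cell-like cluster 16 (66.0 to 110). The figure was 7.67 in cluster 4 (7.16 to 8.20), 6.74 in cluster 18 (5.12 to 8.72) and 2.61 in macrophage-like cluster 1 (2.01 to 3.34). In cluster 16, 40.2% of cells were among those of highest doublet score, against 3.90% in cluster 7. The part of doublets in the value of cluster 16 was not tested. UMIs of this assay mark 3′ ends and were not divided by length, and the genes span 8.33 and 7.16 kb. Their annotated transcripts share 315 words of 60 bases, which are 19.5% of those of H2-DMb1 and 16% of those of H2-DMb2. The counts of each are therefore uncertain where reads could fall on either gene, which bears most on the low H2-DMb2 values of macrophages. Among the genes of the list of other class II genes, H2-Ob, the β chain of the H2-DM inhibitor H2-O, was also highest in cluster 7, at 367 CPM, as was H2-Oa, its α chain, at 142 CPM.

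**Figure D5:**
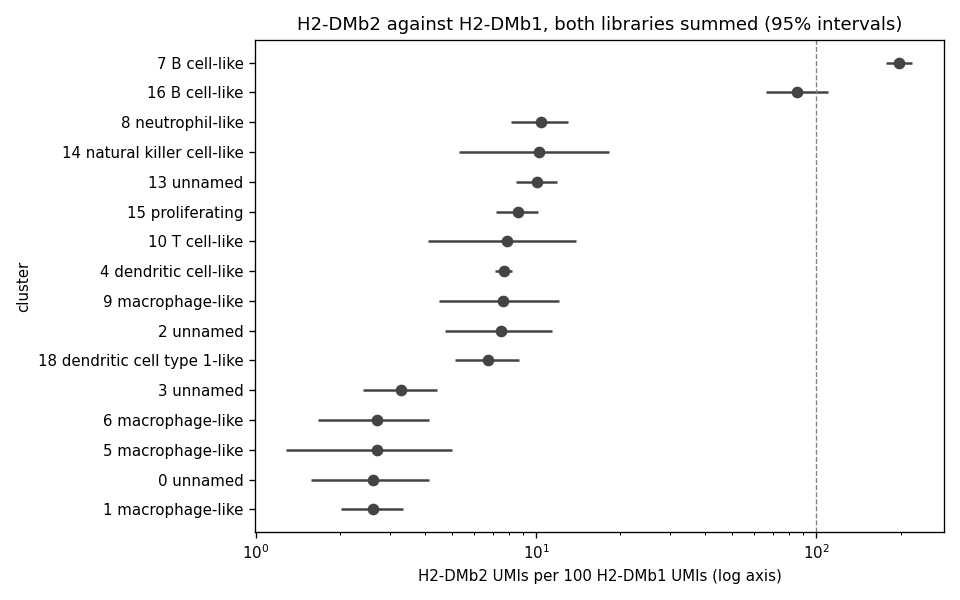
The plot gives H2-DMb2 UMIs per 100 H2-DMb1 UMIs (horizontal log axis, dashed line at 100) in each cluster with at least 50 cells and 5 H2-DMb2 UMIs (vertical axis), both libraries summed, with 95% counting intervals. Cluster 7 lies above 100 and cluster 16 just under it, while all other clusters lie near 10 or below.

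Cd80 had its maximum outside the compartment, and Cd86 followed the class II sum only loosely across clusters. Cd80 was highest in neutrophil-like cluster 8, with 239 CPM in the β-glucan library and 454 CPM in the PBS library (log2 ratio -0.93, -1.07 to -0.78). After thinning it was found in 46.2% of these cells with β-glucan and 59.3% with PBS. Its level by cluster of the compartment, with both libraries summed, was between 34.0 and 58.1 CPM, and the share of thinned cells with a UMI was 6.82% and 8.04%. The neutrophil-like cells also differed in their depth, with medians of 9561 and 4577 UMIs. In the β-glucan library they carried more of other cells' markers: the 10 macrophage markers summed to 7680 CPM against 4275 CPM, and the 7 neutrophil markers to 21367 CPM against 42854 CPM. The part of these values in the difference of Cd80 was not tested. With both libraries summed, Cd86 was highest in cluster 18 (323 and 258 CPM), followed by macrophage-like cluster 9 (265 and 268 CPM), which was the higher of the pair in the PBS library. It was at 203 and 248 CPM in the unnamed cluster 0 (Cd209f, Cd163), which had a class II sum of 1716 and 2348 CPM. Cd86 differed in sign between neighbouring clusters, with a log2 ratio of -0.29 in cluster 0 (-0.37 to -0.20) and 0.26 in cluster 1 (0.15 to 0.37).

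The wider pathway was read from lists of genes in the compartment, with the same fold and background. Class I genes were lower with β-glucan in 11 of 11, and 4 of them were past the fold, while of all 9809 genes 4154 were lower and 4.75% past the fold. Nlrc5 and Erap1 had intervals that spanned 0. In cluster 4 alone, 9 were lower and 2 higher, with 1 past the fold in each direction. The 4 past the fold in the compartment included the immunoproteasome subunits Psmb9 (31.6 and 42.3 CPM, log2 ratio -0.42) and Psmb8 (107 and 141 CPM, -0.39). The others were the peptide transporter Tap1 (26.3 and 33.4 CPM, -0.34) and the class I heavy chain H2-D1 (1249 and 1540 CPM, -0.30). The list's median in the compartment was -0.18. Of 6 genes on the route from interferon-γ, the best known inducer of Ciita, 5 were lower and 3 were past the fold. Among them were the transcription factor Irf1 (24.6 and 33.5 CPM, -0.45) and the kinase Jak2 (79.0 and 98.1 CPM, -0.31). The list's median was -0.23. Of the 6 antigen-processing genes, 0 passed the fold. Of all genes, 4.75% were lower past it and 7.6% higher, so a count of 0 of 6 is near the share over all genes. Ctss, the cathepsin that trims the invariant chain, was at 1968 and 2002 CPM (-0.02), and the median of the list was -0.01. None of the 6 measured RFX, NF-Y and CREB genes passed the fold either, which is also near that share, with a median of 0.01. In cluster 4 alone, 3 of the 6 antigen-processing genes and 2 of the 6 transcription genes were higher past the fold, where 13.9% of all genes were.

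Of the 3 genes of class II turnover, 1 was higher with β-glucan past the fold. Over all 9809 genes of the compartment, 7.6% were higher past the fold and 4.75% lower. Marchf1, the ubiquitin ligase that removes class II and CD86 from the surface, was at 205 and 162 CPM (log2 ratio 0.34, 0.30 to 0.37). It spans 854 kb, and the median log2 ratio of genes of 100 kb or more was 0.14; the part of span in its value was not tested. Marchf8, a related ligase, was at 64.5 and 59.7 CPM (0.11) and Cd83, which opposes Marchf1, at 350 and 348 CPM (0.01, -0.02 to 0.03). Among other costimulatory genes, 4 of 8 were measured at 5 CPM or more, and 2 were lower past the fold, Cd274 (8.76 and 11.5 CPM, -0.39) and Tnfsf9 (11.1 and 13.5 CPM, -0.28). In cluster 4 alone, where 4 of the 8 were also measured, 1 was lower and 3 were higher, with 0 past the fold. Of the other class II genes, 1 of 4 was measured at that level, H2-Ob, at 6.73 and 8.39 CPM (-0.32), and H2-Ea had no row in the counts. Of the 4 receptors of T cells, 0 were measured at that level.

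In the genome, the class II and H2-DM genes lie together on chromosome 17 (GRCm39). H2-DMa is at chr17:34338515-34358958, H2-DMb2 at chr17:34362197-34370529 and H2-DMb1 at chr17:34372046-34379204, on the plus strand. H2-Ab1 is at chr17:34476663-34488393 on the plus strand, H2-Aa at chr17:34493404-34506798 on the minus strand and H2-Eb1 at chr17:34504236-34535648 on the plus strand. H2-Aa and H2-Eb1 overlap on opposite strands. Ciita (chr16:10297923-10347694, plus), Cd86 (chr16:36424044-36486443, minus) and Cd80 (chr16:38275923-38316697, plus) share chromosome 16, and Cd74 is on chromosome 18. Annotated protein-coding genes on the opposite strand also overlap H2-DMa (Brd2), Ciita (Dexi) and Cd80 (Timmdc1).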

How the data were processed

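Synovial CD45+CD11b+ cells were measured with droplet-based single-cell RNA sequencing of 3′ ends, with 1 library for each group. The authors deposited raw UMI counts per gene and barcode, made with Cell Ranger 7.0.0 on GRCm39 with Ensembl 104 genes, without normalization and before a filter on cells. Whether reads in introns were counted is not given in the sources used here. The labels also name mm10, with no role.

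Cells had to show 500 genes or more and no more than 10% mitochondrial UMIs. The merged libraries were clustered with Seurat 5.3.0 after sctransform 0.4.2, under R 4.3.3 (3000 variable genes, 30 principal components, 20 neighbours, resolution 0.7), leaving the members and 49 listed genes out of the variable genes. A cluster was named from fixed marker lists if at least 3 markers were detected in 25% of its cells, its score was high enough (0.3 for macrophages, 1 for other types, thresholds set after seeing the data) and its 10 leading genes did not hold more markers of another type. Scrublet (scanpy 1.11.5) called 0 and 2 cells as doublets, too few for its calls to be relied on, so no cell was removed. As an alternative the 260 and 166 cells of highest score were left out.

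UMIs were summed per cluster and library and divided by all UMIs of those cells, times 1000000 (CPM). Genes whose mean reached 5 CPM were compared, and a log2 ratio of 0.25 in size was the fold. Intervals are exact 95% Poisson or Clopper-Pearson intervals, with the conditional binomial for ratios; since cells share mice and a library, these cover counting error only. The functions were tested on simulated data. The members and lists were chosen with earlier results of these data known. The text names all 10 members, up to 3 highest and 3 lowest genes of each list, and the 10 genes most like the class II sum. Other genes (markers, Ccr2, Ctss, H2-Oa, H2-D1) were named after their values were seen, and values of some listed genes are not reported here. The tools were pandas 2.3.3, scipy 1.17.1 and numpy 2.4.6 under Python 3.11.15, and edgeR 4.0.16 gave TMM scaling for an alternative. Other alternatives changed the filter, the clustering, the cells, the totals and the weights. Gene positions came from a later annotation of GRCm39 than Ensembl 104.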

Additional observations from a re-analysis of the deposited data

Results flagged for a closer look

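The class II sum went the other way in some clusters outside the myeloid compartment, while it was lower with β-glucan in the B cell-like, proliferating, stromal and endothelial clusters. In neutrophil-like cluster 8 its log2 ratio of β-glucan over PBS was 0.22 (0.19 to 0.25), with 8568 and 7349 CPM, and in T cell-like cluster 10 it was 0.29 (0.24 to 0.35), with 4268 and 3485 CPM, against -0.58 in the compartment. In basophil- or mast cell-like cluster 11 it was 1.89, from 8 and 5 cells over the cut. Few cells carried the stromal and endothelial values. In the stromal cluster 1 cell over the cut held 94.1% of the class II UMIs with PBS. Stromal cells under the cut were at 59.6 CPM with β-glucan and 51.7 CPM with PBS. In the endothelial cluster 1 and 2 cells over the cut held 84.0% and 94.9%. These differences were not tested, since each group was 1 library. Cells over the cut held 98.0% and 98.3% of the class II UMIs of the neutrophil-like cluster, and 98.5% and 95.8% of those of the T cell-like cluster. Among neutrophil-like cells 32.3% (26.5% to 38.4%) were over the cut with β-glucan and 12.1% (7.67% to 18.0%) with PBS, and among T cell-like cells 11 of 119 in each library. Of the neutrophil-like and T cell-like cells, 14.2% and 11.8% were among the cells of highest doublet score.

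Barcodes that did not pass the filter on cells also held class II UMIs. Their class II sum was 2688 CPM (2632 to 2745) in 1500 barcodes of the β-glucan library and 2589 CPM (2532 to 2646) in 1207 barcodes of the PBS library, so these data outside the comparison were slightly higher with β-glucan.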

How the results depend on the processing

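No paired analysis was possible because each group was 1 library, and none could be left out. The class II sum of the compartment, at a log2 ratio of -0.58, stayed below 0 under all alternatives run. It was -0.59 with the stricter filter, Leiden clustering or totals without mitochondrial and ribosomal protein genes, -0.57 without the cells of highest doublet score, -0.63 without cells with B cell UMIs, -0.61 with thinned cells, -0.60 with TMM, -0.56 over all cells of the sort and -0.76 without dendritic cell-like clusters. The last setting still held cluster 13, which scored highest for dendritic cell markers but was unnamed, and had PBS cells only. Over the 7 clusters that scored highest for macrophage markers, the log2 ratio was -0.29. The alternatives that even out clusters moved the class II sum of the compartment most, to -0.17 (matched cells, which also equalized cell numbers per cluster), -0.26 (equal weight per cluster) and -0.25 (pooled share of UMIs). Cluster 13 was left out of all of these, and clusters 18 and 19 were left out of the weighted settings too. With only cluster 13 left out, the class II sum was at -0.49. The settings without cluster 13 and at the pooled share were chosen after seeing the data. The number of genes lower past the fold, 7, was 0 with matched cells, 3 with equal weight per cluster and 2 at the pooled share. H2-DMb2 reversed to 0.15, 0.14 and 0.16 in these.

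The class II sum of the macrophage-like clusters, at -0.21, was -0.28 without a filter, -0.58 with the stricter filter, -0.38 with the listed genes kept, -0.26 at resolution 0.5, -0.29 at resolution 1, -0.30 with 20 principal components, -0.34 with Leiden clustering, -0.20 without the cells of highest doublet score, -0.25 without cells with B cell UMIs, -0.26 with equal weight per cell, -0.27 with thinned cells, -0.18 with matched cells and -0.31 with equal weight per cluster. Between 2 and 7 clusters took the name under these clusterings, so the cells differ as well. The log2 ratio of the highest over the lowest cluster, 6.43, was 6.76 without a filter, 6.51 with the stricter filter and at resolution 1, 7.57 with the listed genes kept, 7.23 with 20 principal components, 6.81 with Leiden clustering, 7.32 without the cells of highest doublet score, 6.49 without cells with B cell UMIs, 6.58 with the other totals, 6.87 with equal weight per cell or thinned cells and 6.0 with matched cells. The cause of each move was not tested. Depth limits H2-DMb2 in macrophage-like clusters, which had 69 and 46 UMIs in all.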
